A study of Mus musculus with 12 samples.

Results

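Chemokines are small secreted proteins that guide cells through G protein-coupled receptors, and the inflammatory cytokines of the IL-1, IL-6 and TNF families act on cells of the same tissue. The members of this gene group were all listed genes with a symbol of the Cxcl, Ccl, Cxcr or Ccr series, together with Il6, Il11, Lif, Il1a, Il1b, Il1rn, Il33, Tnf and Cx3cl1, which gave 62 of the 28244 genes listed. The rule uses gene names and no measured value. The group held 24 CC ligands, 13 CXC ligands of which 5 are neutrophil-attracting ligands with an ELR motif, the single CX3C ligand, 16 receptors, 4 genes of the IL-1 family, 3 of the IL-6 family and Tnf.

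The cells were murine mesenchymal progenitors in the labels, which the study calls cartilage progenitors, taken from the cartilaginous heads and condyles of the femurs and tibiae of C57/BL6 pups aged 5 or 6 days. Cell pellets were kept in chondrogenic medium for 7 days and then in osteogenic medium, a serial protocol meant to follow cartilage cells towards a bone cell phenotype. RNA was sequenced at D7, before the change of medium, and at D8, D10 and D28, when the pellets had spent 1, 3 and 21 days in it. There were 3 libraries at each time point and 12 in all, with no genetic modification or drug in any of them. The sources used here do not say whether replicates came from separate cell preparations or pooled animals, so the p-values measure the spread between these libraries, which may be technical.

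Values are log2 of an equalized read count plus 1, so that a difference of 1 is a change of 2-fold, and log2 fold changes are given with their standard error (SE). A gene was called when its log2 fold change was at least 1 in either direction with an adjusted p under 0.05 in limma. In all, 43 members had enough signal to be tested, beside 17674 genes of the whole table. Of these members 27 were called in at least 1 of 5 comparisons, which is 62.8%, beside 38.2% of all genes tested.

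The pellets carried cartilage genes throughout. The summed level of 6 chondrocyte markers lay between 20.07 and 21.31 on the log2 scale in every library, and that of 6 osteoblast markers between 16.73 and 19.14. The chondrocyte sum is carried by Col2a1, which held the largest value of the table in all libraries of D7, D8 and D28. Of the chondrocyte markers, 4 of 6 fell from D7 to D10 (Matn3 by 4.37, Comp by 1.77, Col9a1 by 1.65 and Acan by 1.17), and so did 4 of 6 osteoblast markers, among them Ibsp by 6.34 and Alpl by 3.26, while Bglap, which encodes osteocalcin, rose by 3.25. Relative depth, read from the lowest levels of each library, was 0.669 to 0.971 at D7 and D10, 0.882 to 1.10 at D8 and 1.10 to 1.20 at D28. A level of 3 reads corresponded to at most 2.87, and values under it are close to the detection limit. Skeletal muscle markers fell from sums of 11.56 to 11.86 at D7 to 8.35 to 8.89 at D10 and 6.79 to 7.73 at D28, and adipocyte markers stood at 11.94 to 12.20 at D7, 9.89 to 10.46 at D10 and 15.33 to 15.77 at D28. In bulk RNA, fewer cells of a type and less RNA per cell cannot be told apart.

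Lif and Il11 were higher from D8, and Il6 at D10. Lif and Il11 were lowest at D28, and Il6 fell from D10 to D28. Cxcl12 and Il1rn, which encodes the secreted antagonist of the IL-1 receptor, were lower at D8 and D10 and higher again at D28. Ccl9, Ccl6 and Cxcl9 had their highest level at D28.

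**Figure D1:**
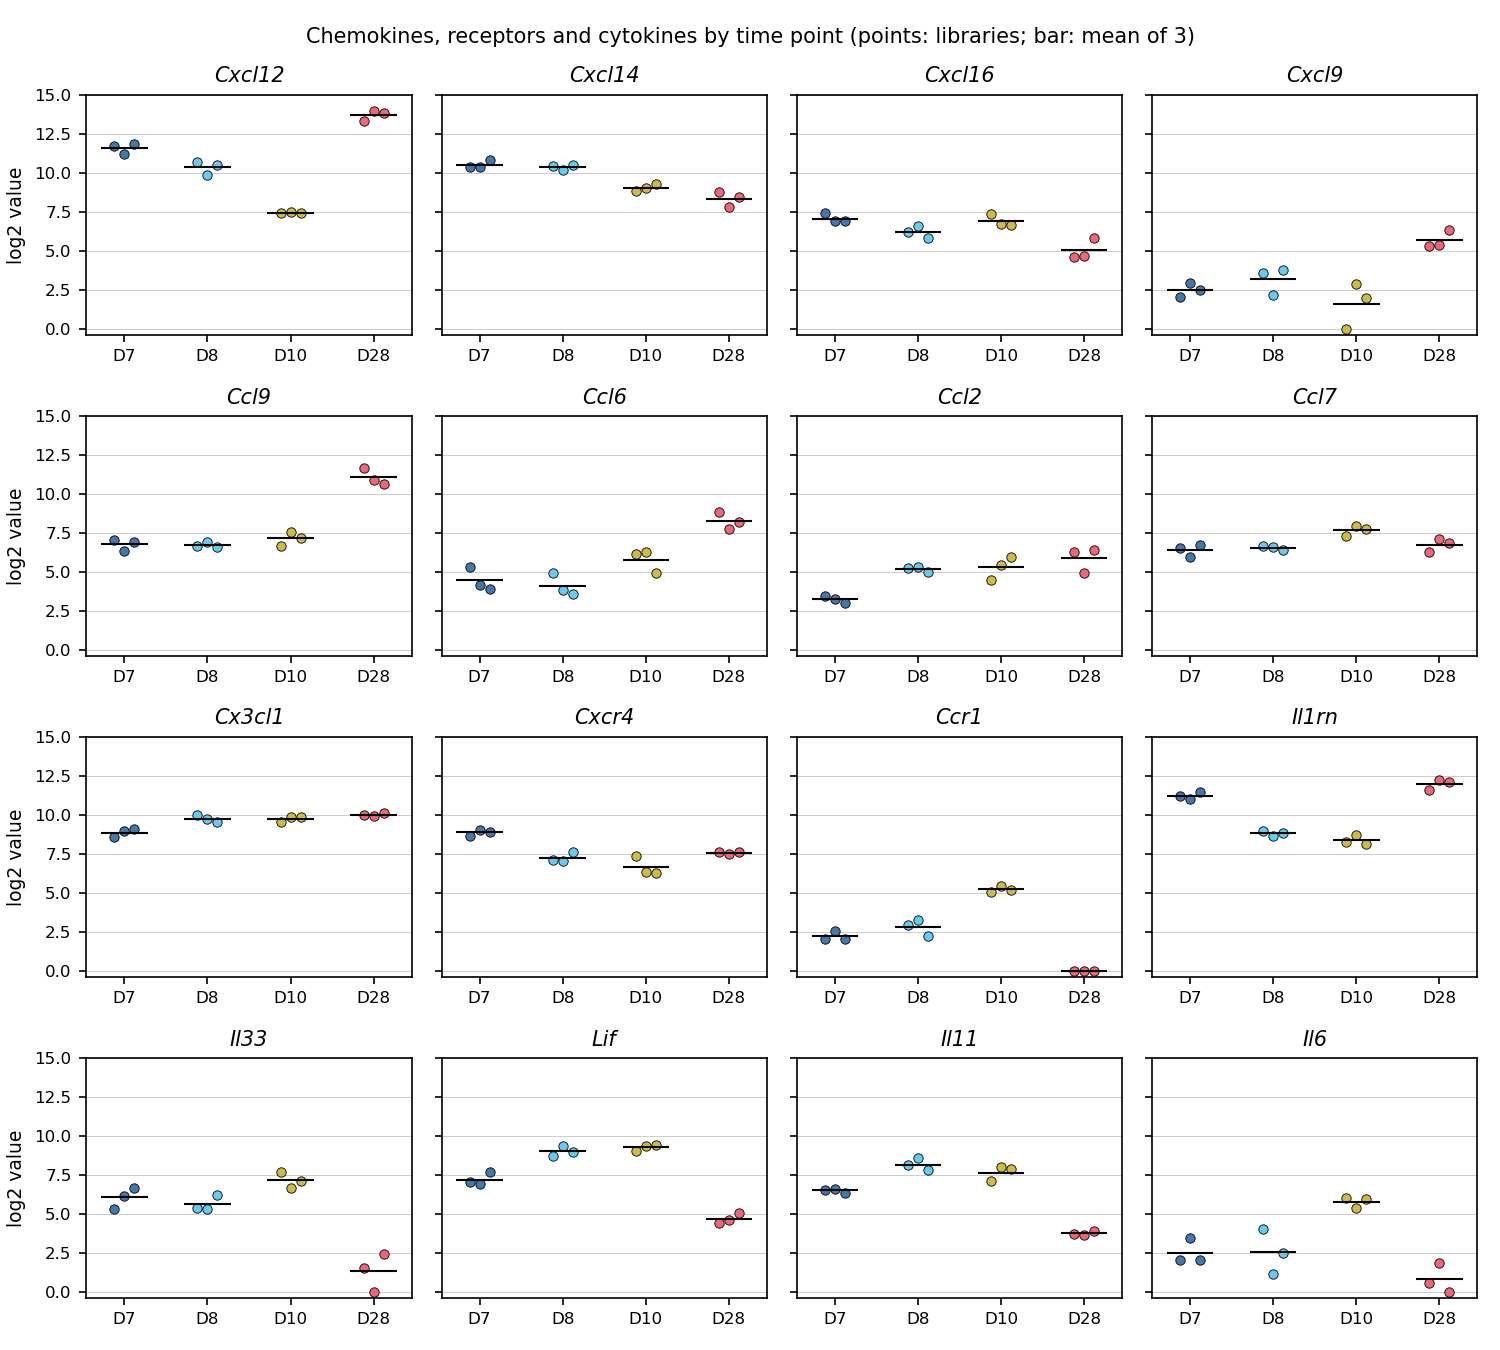
Log2 values of 16 members in each of the 12 libraries (y axis, log2 of the equalized count plus 1) at D7, D8, D10 and D28 (x axis), with points for libraries and a bar for the mean of 3. Cxcl12 is lowest at D10 (7.40 to 7.48) and highest at D28 (13.32 to 13.98), whereas Lif is above 8.7 at D8 and D10 and at most 5.02 at D28.

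IL-6 family cytokines bind a private receptor chain (IL-6Rα, IL-11Rα or LIFR) and signal through the shared chain gp130, the product of Il6st, to STAT3. In bone, LIF, IL-11 and IL-6 are known to act on osteoblasts and on the support of osteoclasts. The promoters of this family and of the ELR ligands Cxcl1 and Cxcl2 are shown because these genes rose after the change of medium. The sequences are from RefSeq on GRCm38.p6, 250 bases before to 50 after each start, 5′ to 3′ on the strand of the gene. Capitals mark matches to the AP-1 letters TGANTCA or to the NF-kappaB consensus, both searched on both strands. The promoters lie at chr11:4257318-4257617 for Lif (plus strand), chr7:4778092-4778391 for the downstream start of Il11 (minus strand), chr5:30012864-30013163 for Il6 (plus strand), chr5:90890995-90891294 for Cxcl1 (plus strand) and chr5:90903649-90903948 for Cxcl2 (plus strand).
Lif: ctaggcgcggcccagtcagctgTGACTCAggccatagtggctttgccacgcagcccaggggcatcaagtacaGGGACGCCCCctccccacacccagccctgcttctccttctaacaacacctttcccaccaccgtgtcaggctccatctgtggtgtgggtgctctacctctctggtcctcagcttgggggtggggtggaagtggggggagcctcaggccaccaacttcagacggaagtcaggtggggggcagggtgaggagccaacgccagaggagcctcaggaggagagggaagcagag
Il11: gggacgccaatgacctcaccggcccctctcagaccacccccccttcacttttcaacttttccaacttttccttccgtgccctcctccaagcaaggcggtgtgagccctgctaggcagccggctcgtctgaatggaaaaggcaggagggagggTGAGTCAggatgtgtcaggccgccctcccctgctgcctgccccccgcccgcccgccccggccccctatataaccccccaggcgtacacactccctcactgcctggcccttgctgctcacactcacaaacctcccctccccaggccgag
Il6: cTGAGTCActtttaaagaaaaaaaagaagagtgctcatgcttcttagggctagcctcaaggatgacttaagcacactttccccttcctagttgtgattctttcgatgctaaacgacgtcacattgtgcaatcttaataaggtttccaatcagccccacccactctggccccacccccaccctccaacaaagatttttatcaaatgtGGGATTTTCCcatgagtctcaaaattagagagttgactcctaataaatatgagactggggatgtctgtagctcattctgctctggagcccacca
Cxcl1: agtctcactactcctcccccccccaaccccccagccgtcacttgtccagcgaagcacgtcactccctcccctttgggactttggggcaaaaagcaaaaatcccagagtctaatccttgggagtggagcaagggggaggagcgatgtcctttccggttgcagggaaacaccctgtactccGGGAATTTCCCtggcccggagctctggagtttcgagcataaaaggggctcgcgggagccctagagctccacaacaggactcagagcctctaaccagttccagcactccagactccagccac
Cxcl2: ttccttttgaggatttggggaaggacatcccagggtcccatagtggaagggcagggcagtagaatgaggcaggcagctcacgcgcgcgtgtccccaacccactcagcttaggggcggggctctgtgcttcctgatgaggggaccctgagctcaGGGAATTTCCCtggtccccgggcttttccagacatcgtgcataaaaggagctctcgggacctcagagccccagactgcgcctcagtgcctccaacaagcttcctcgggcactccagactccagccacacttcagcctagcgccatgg

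An AP-1 match began 228 bases before the start of Lif, 98 bases before the downstream start of Il11 and 249 bases before the start of Il6. The upstream start of Il11, at chr7:4782808-4783107, held neither motif. NF-kappaB matches began 178 bases before the start of Lif and 44 bases before that of Il6, and an overlapping pair of matches began 71 and 70 bases before Cxcl1 and 97 and 96 bases before Cxcl2. RefSeq promoters were found for 46 of the 62 members, 57 promoters in all. The AP-1 letters were in 14 of them (24.6%), beside 7.81% of 32851 promoters of the same length, and the NF-kappaB consensus in 13 (22.8%), beside 8.46%. These matches are a description of the letters and not evidence of binding.

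Lif (chromosome 11, 4257557 to 4272514 on GRCm38) stood at 7.03, 6.89 and 7.66 at D7, at 8.72, 9.35 and 8.98 at D8, at 9.04, 9.37 and 9.42 at D10 and at 4.38, 4.62 and 5.02 at D28. All 6 libraries of D8 and D10 were above those of D7, and the 3 of D28 were below all others. The rise from D7 to D8 was 3.53-fold (log2 fold change 1.82, SE 0.24, limma adjusted p = 7.8e-05), D10 differed from D8 by 0.26 (limma adjusted p = 0.45), and the fall from D10 to D28 was 24.2-fold (log2 fold change -4.60, SE 0.24, limma adjusted p = 4.8e-10).

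Il11 (chromosome 7, 4772373 to 4782859) had values of 6.51, 6.62 and 6.36 at D7, 8.14, 8.55 and 7.78 at D8, 7.08, 7.99 and 7.85 at D10, and 3.70, 3.63 and 3.91 at D28. As for Lif, all D8 and D10 libraries were above those of D7 and those of D28 were lowest, and only D8 and D10 overlapped. Il11 rose 3.15-fold from D7 to D8 (log2 fold change 1.66, SE 0.27, limma adjusted p = 4.3e-04) and fell 14.8-fold from D10 to D28 (log2 fold change -3.89, SE 0.27, limma adjusted p = 1.1e-08). D10 was still 2.20-fold above D7 (limma adjusted p = 0.0028), but without replicate 2 of D10 the log2 fold change was 0.96 and under the threshold.

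Il6 (chromosome 5, 30013114 to 30019981) was later and lower. It was at 2.03, 3.45 and 2.03 at D7, at 4.02, 1.12 and 2.50 at D8, at 6.00, 5.36 and 5.97 at D10 and at 0.58, 1.84 and 0.00 at D28. Only the D10 libraries were clear of the detection limit as a group, and none of the others reached them. The rise from D8 to D10 was 9.39-fold as fitted (log2 fold change 3.23, SE 0.69, limma adjusted p = 0.0028) and 5.74-fold with low values raised to the level of 3 reads. It was 3.97 on the log2 scale without replicate 1 of D8 and 2.52 without replicate 2 of D8. The fall to D28 was 31.3-fold as fitted (log2 fold change -4.97, SE 0.69, limma adjusted p = 2.1e-05) and 7.48-fold with that floor. D28 against D7 was not called (log2 fold change -1.69, limma adjusted p = 0.067), and with that floor the difference was 1.14-fold.

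Il6ra, Lifr and Il11ra1, which encode the private receptor chains, fell from D7 to D10, where the ligands rose, and rose from D10 to D28, where the ligands fell. Of 12 further genes of IL-6 family signalling, all tested, 1 rose and 5 fell from D7 to D10, and 4 rose and 1 fell from D10 to D28. Over all genes tested, 8.50% rose and 10.4% fell in the first of these comparisons and 13.8% and 13.7% in the second. Il6ra, the IL-6 receptor, stood at 10.20, 10.57 and 10.06 at D7, at 7.27, 8.05 and 7.46 at D10 and at 11.42, 10.56 and 10.76 at D28, so that no D10 library reached any of D7 or D28. It fell by 2.69 on the log2 scale from D7 to D10 (SE 0.27, limma adjusted p = 1.2e-06) and rose by 3.32 from D10 to D28 (SE 0.27, limma adjusted p = 6.3e-08).

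Lifr, the LIF receptor, was at 11.46, 10.52 and 11.34 at D7, at 9.40, 9.37 and 9.78 at D8, at 9.11, 8.50 and 8.39 at D10 and at 11.63 or more at D28. It was already lower at D8 in every library (log2 fold change -1.59, limma adjusted p = 1.6e-04), reached -2.44 at D10 against D7 (SE 0.23, limma adjusted p = 6.0e-07) and rose by 3.11 from D10 to D28 (SE 0.23, limma adjusted p = 2.0e-08). Il11ra1, the IL-11 receptor, fell by 1.59 and then rose by 1.91, but this gene lies in a region of near-identical copies and shares exon bases with Ccl27a on the opposite strand, so its reads may be split or mixed. Il6st, the shared chain, lay between 12.28 and 12.88 in all 12 libraries and was not called in any comparison. Socs3, a feedback inhibitor of the same pathway and a target of STAT3, fell by 1.60 from D7 to D10 (SE 0.21, limma adjusted p = 2.2e-05). Clcf1, another ligand of the family, fell by 1.95 from D10 to D28 (limma adjusted p = 2.2e-07). D10 is shared by these comparisons, so the fall and the rise of a gene are not independent of each other.

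**Figure D2:**
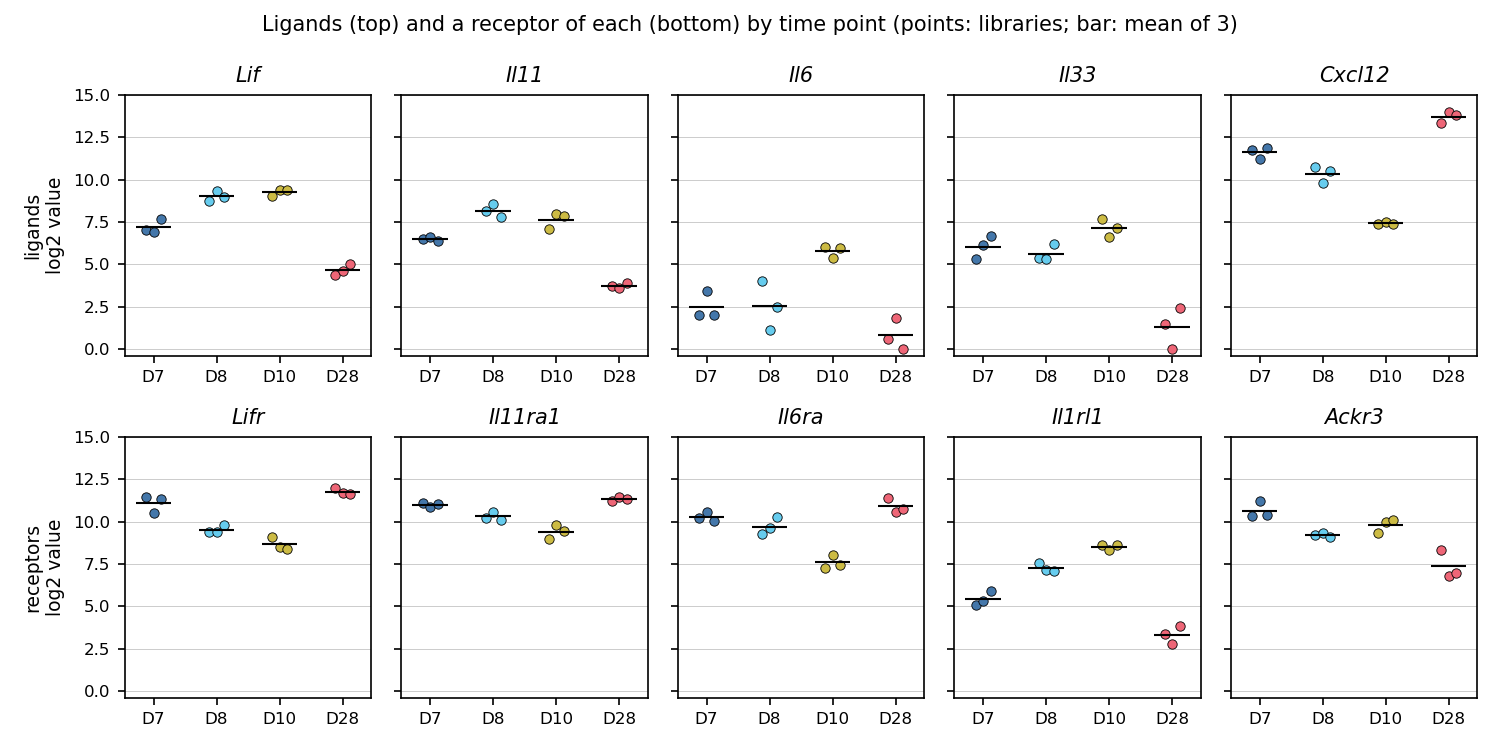
Log2 values per library (points) and means of 3 (bars) at the 4 time points for 5 ligands in the upper row and a receptor of each in the lower row. Lif, Il11 and Il6 are higher at D10 than at D28 while Lifr, Il11ra1 and Il6ra are lower, whereas Il33 and Il1rl1 are both lowest at D28.

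IL-1 and IL-33 are alarmins and proinflammatory cytokines of 1 family, and IL-1 receptor antagonist occupies the IL-1 receptor without signalling. Il1rn (chromosome 2, 24336853 to 24351494) stood at 11.19, 11.00 and 11.45 at D7, at 8.98, 8.61 and 8.83 at D8, at 8.29, 8.70 and 8.14 at D10 and at 11.60, 12.23 and 12.10 at D28. The 6 libraries of D8 and D10 were separated from the 6 of D7 and D28. Il1rn fell 5.31-fold within the first day of osteogenic medium (log2 fold change -2.41, SE 0.18, limma adjusted p = 7.3e-07) and rose 12.2-fold from D10 to D28 (log2 fold change 3.60, SE 0.18, limma adjusted p = 3.1e-10). At D28 it was 1.70-fold above D7, under the fold threshold.

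Il1a and Il1b, the agonists of the IL-1 receptor, were low, and so was Tnf, a cytokine of another family. Il1a reached 3.37 in its highest library, Il1b 2.50, and Tnf 3.43, and none of the 3 was called in any comparison. Il1r1, the IL-1 receptor that both agonist and antagonist bind, fell by 1.70 from D7 to D10 (limma adjusted p = 6.2e-07) and rose by 1.90 from D10 to D28 (limma adjusted p = 9.2e-08). Il18, a cytokine of the same family, rose by 2.23 from D10 to D28 (SE 0.19, limma adjusted p = 1.1e-07) and Casp1, whose protease matures IL-1β and IL-18, by 3.69 as fitted (SE 0.58, limma adjusted p = 6.8e-05) and by 2.09 with low values raised to the level of 3 reads. Il1r2, a decoy receptor of IL-1, rose by 2.60 as fitted in that step and by 1.41 with that floor. Both Il1r2 and Casp1 had fallen from D7 to D10, to the floor, and with low values raised to it both falls were under the fold threshold. Among the 15 further genes of IL-1 and TNF signalling, 2 rose and 3 fell from D7 to D10 (13.3% and 20.0%, beside 8.50% and 10.4% of all genes tested), and 5 rose and 3 fell from D10 to D28 (33.3% and 20.0%, beside 13.8% and 13.7%).

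Il33 (chromosome 19, 29925114 to 29960718) encodes a nuclear alarmin that signals through ST2. Its values were 5.31, 6.17 and 6.67 at D7, 5.37, 5.33 and 6.18 at D8, 7.68, 6.63 and 7.13 at D10 and 1.5025, 0.00 and 2.44 at D28. The D28 libraries held 3, 0 and 7 reads of it, and all others were at 5.31 or more. The fall from D10 to D28 was 57.1-fold as fitted (log2 fold change -5.83, SE 0.54, limma adjusted p = 2.7e-07) and 19.3-fold with low values raised to the level of 3 reads. Without replicate 2 of D28, which was at 0.00, the log2 fold change was -5.18, and without replicate 3 of D28 it was -6.40. The smaller rise from D8 to D10 (log2 fold change 1.52, limma adjusted p = 0.044) was lost without replicate 2 of D7 (adjusted p = 0.052), replicate 1 or 2 of D8 (0.13 in both fits), or replicate 1 (0.16) or 3 (0.091) of D10, and it also missed the threshold when no filter on low values was used (limma adjusted p = 0.067).

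Il1rl1, which encodes ST2, the receptor of IL-33, also fell at D28, but rose earlier. It was at 5.09, 5.31 and 5.92 at D7, at 7.57, 7.16 and 7.07 at D8, at 8.63, 8.32 and 8.65 at D10 and at 3.37, 2.81 and 3.82 at D28. The 4 time points did not overlap in any library. Il1rl1 rose by 3.09 from D7 to D10 (SE 0.30, limma adjusted p = 9.1e-07) and fell by 5.20 from D10 to D28 (SE 0.30, limma adjusted p = 1.6e-09).

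CXCL12 is the homeostatic chemokine of bone marrow stroma that holds haematopoietic cells through CXCR4. Cxcl12 (chromosome 6, 117168535 to 117181367) was measured at 11.75, 11.22 and 11.85 at D7, at 10.72, 9.84 and 10.53 at D8, at 7.40, 7.48 and 7.40 at D10 and at 13.32, 13.98 and 13.82 at D28. No library of any time point overlapped with another time point. From D7 to D10 Cxcl12 fell 18.1-fold (log2 fold change -4.18, SE 0.22, limma adjusted p = 2.1e-09), and from D10 to D28 it rose 77.8-fold (log2 fold change 6.28, SE 0.22, limma adjusted p = 7.7e-12), to 4.29-fold above D7. The first step, from D7 to D8, was -1.25 (limma adjusted p = 7.7e-04) and fell under the fold threshold at -0.98 without replicate 2 of D8. Per kilobase of exon, Cxcl12 at D28 had the highest level of any member at any time point, 10.70 on the log2 scale.

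Cxcr4 (chromosome 1, 128588199 to 128592293), the signalling receptor of CXCL12, was at 8.67, 9.05 and 8.93 at D7, at 7.12, 7.02 and 7.59 at D8, at 7.34, 6.35 and 6.28 at D10 and at 7.65, 7.46 and 7.62 at D28. It was highest in the D7 libraries, and every later library was lower. Cxcr4 fell 3.11-fold by D8 (log2 fold change -1.64, SE 0.25, limma adjusted p = 2.6e-04) and stood 2.48-fold below D7 at D28 (limma adjusted p = 6.4e-04). Ackr3, a scavenger of CXCL12 outside the group, was at 8.36, 6.82 and 7.00 at D28, below all other libraries, and fell by 2.43 from D10 to D28 (SE 0.33, limma adjusted p = 1.5e-05).

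Cxcl14 (chromosome 13, 56288643 to 56296551), a homeostatic chemokine of epithelia and stroma, had the highest level per kilobase among the members at D7, D8 and D10, with 9.69 at D7. Its values were 10.35, 10.40 and 10.85 at D7, 10.43, 10.20 and 10.53 at D8, 8.81, 9.04 and 9.26 at D10 and 8.77, 7.78 and 8.47 at D28. The D10 and D28 libraries lay below all of D7 and D8. From D8 to D10 it fell 2.55-fold (log2 fold change -1.35, SE 0.21, limma adjusted p = 2.8e-04), and at D28 it was 4.58-fold below D7 (log2 fold change -2.19, limma adjusted p = 9.2e-07).

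Cxcl16 (chromosome 11, 70453983 to 70459984), a membrane-bound ligand and the partner of CXCR6, was at 7.41, 6.89 and 6.89 at D7, at 6.22, 6.57 and 5.83 at D8, at 7.37, 6.71 and 6.67 at D10 and at 4.58, 4.66 and 5.84 at D28. Replicate 3 of D28 overlapped with D8 but not with D7 or D10. Cxcl16 fell 3.70-fold from D10 to D28 (log2 fold change -1.89, SE 0.34, limma adjusted p = 2.2e-04). Its exons overlap with those of Zmynd15 on the opposite strand, and the strand setting of the read counting is not given in the sources used here, so their reads cannot be told apart.

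Cx3cl1 (chromosome 8, 94772009 to 94782427) encodes fractalkine, a membrane-tethered chemokine. It was at 8.55, 8.95 and 9.07 at D7, at 10.01, 9.73 and 9.54 at D8, at 9.52, 9.84 and 9.84 at D10 and at 10.00, 9.95 and 10.11 at D28. Every later library was above those of D7. The step at D8 was 1.87-fold (log2 fold change 0.90, SE 0.15, limma adjusted p = 6.0e-04) and missed the fold threshold, and D28 was 2.24-fold above D7 (log2 fold change 1.16, SE 0.15, limma adjusted p = 2.0e-05). Cx3cr1, its receptor, had 3 reads or fewer in every library.

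CC ligands draw monocytes, macrophages and osteoclast precursors. Ccl9 (chromosome 11, 83572919 to 83578636), a ligand of CCR1 known as a chemoattractant of osteoclast precursors, stood at 7.03, 6.34 and 6.93 at D7, at 6.67, 6.89 and 6.56 at D8, at 6.68, 7.57 and 7.20 at D10 and at 11.67, 10.89 and 10.65 at D28. The first 3 time points overlapped, and all D28 libraries were above them. From D10 to D28 it rose 15.1-fold (log2 fold change 3.92, SE 0.27, limma adjusted p = 1.2e-08).

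Ccl6 (chromosome 11, 83587882 to 83593087), the neighbour of Ccl9 and another CCR1 ligand, was at 5.31, 4.16 and 3.87 at D7, at 4.89, 3.82 and 3.55 at D8, at 6.12, 6.27 and 4.93 at D10 and at 8.81, 7.75 and 8.23 at D28. The D28 libraries were highest, and those of D7 and D10 overlapped. Ccl6 was 14.1-fold higher at D28 than at D7 (log2 fold change 3.82, SE 0.47, limma adjusted p = 1.1e-05) and 5.61-fold higher than at D10 (limma adjusted p = 3.4e-04). The rise from D8 to D10 (log2 fold change 1.68, limma adjusted p = 0.014) was lost without replicate 3 of D8 (0.064), replicate 1 of D10 (0.054) or replicate 2 of D10 (0.055). That from D7 to D10 (log2 fold change 1.33, limma adjusted p = 0.033) was lost without replicate 2 (0.09) or 3 (0.13) of D7 or replicate 1 (0.11) or 2 (0.12) of D10, with low values raised to the level of 3 reads (0.085), and also under the study's own rule.

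Ccr1 (chromosome 9, 123962124 to 123968692), is the receptor that both of these ligands use. It was at 2.03, 2.52 and 2.03 at D7, at 2.92, 3.26 and 2.22 at D8, at 5.05, 5.41 and 5.20 at D10 and at 0.00 in all 3 libraries of D28. The D10 libraries were clear of all others. Ccr1 rose 5.35-fold as fitted from D8 to D10 (log2 fold change 2.42, SE 0.44, limma adjusted p = 9.6e-04). It was 37.3-fold lower at D28 than at D10 as fitted (log2 fold change -5.22, limma adjusted p = 1.2e-07). With low values raised to the level of 3 reads, it was at least 5.09-fold lower. The call of D28 against D7 was lost with low values raised to that floor.

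Ccl2 and Ccl7 lie side by side on chromosome 11 and encode monocyte chemoattractants that share the receptor CCR2. Ccl2 (82035571 to 82037453) was at 3.45, 3.27 and 3.01 at D7, at 5.22, 5.33 and 4.99 at D8, at 4.45, 5.41 and 5.97 at D10 and at 6.26, 4.93 and 6.38 at D28. All later libraries were above those of D7 and overlapped with each other. The rise by D8 was 3.83-fold (log2 fold change 1.94, SE 0.43, limma adjusted p = 0.0049). Ccl7 (82045712 to 82047525) was at 6.55, 5.95 and 6.72 at D7, at 6.65, 6.59 and 6.40 at D8, at 7.32, 7.96 and 7.75 at D10 and at 6.27, 7.11 and 6.82 at D28. Only the D10 libraries stood apart for Ccl7. It rose 2.19-fold from D8 to D10 (log2 fold change 1.13, SE 0.26, limma adjusted p = 0.0047), which fell to 0.99 and under the fold threshold without replicate 2 of D10. Ccr2, their receptor, was at 0 in all 12 libraries.

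Ccl25 (chromosome 8, 4325210 to 4360020), a chemokine of thymus and gut, was at 6.47, 6.74 and 6.07 at D7, at 6.93, 6.64 and 7.04 at D8, at 6.58, 7.00 and 6.70 at D10 and at 5.68, 5.32 and 6.10 at D28. The D28 libraries were below those of D8 and D10. The 2.09-fold fall from D10 to D28 (log2 fold change -1.06, SE 0.26, limma adjusted p = 0.0025) was close to the fold threshold. It was -0.94 without replicate 2 of D10, -0.87 without replicate 2 of D28 and -0.94 under median-of-ratios scaling. Its exons overlap with those of Elavl1 on the opposite strand, with the limit given above for Cxcl16.

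Cxcl9 (chromosome 5, 92321347 to 92328079) is a ligand of CXCR3 and a textbook interferon-induced gene. It was at 2.03, 2.95 and 2.46 at D7, at 3.58, 2.17 and 3.79 at D8, at 0.00, 2.84 and 1.97 at D10 and at 5.31, 5.38 and 6.31 at D28. The D28 libraries were above all others, with 57 to 113 reads beside at most 14 in any other library. Cxcl9 was 16.7-fold higher at D28 than at D10 as fitted (log2 fold change 4.06, SE 0.66, limma adjusted p = 8.9e-05) and 6.93-fold higher with low values raised to the level of 3 reads, and the log2 fold change was 3.26 without replicate 1 of D10 and 4.68 without replicate 2 of D10. Cxcl10, a second ligand of CXCR3, lay between 0.00 and 4.51 and was not called. Of 12 interferon response genes 7 rose from D10 to D28 and none fell. Among them Oasl2 rose by 3.04 as fitted (SE 0.53, limma adjusted p = 1.8e-04) and by 2.39 with low values raised to the level of 3 reads. Ifit1 rose by 2.85 (SE 0.51, limma adjusted p = 2.1e-04), Isg15 by 2.35 (SE 0.54, limma adjusted p = 0.0018) and Irf7 by 2.12 (SE 0.30, limma adjusted p = 2.3e-05). Of all genes tested, 13.8% rose and 13.7% fell in that step. From D7 to D10, 1 of the 12 rose (Rsad2) and 2 fell (Oasl2 and Isg15), beside 8.50% and 10.4%. The summed level of the 12 genes was highest in replicate 3 of D28 (11.83, beside 11.13 and 10.98), the library in which Cxcl9 was also highest. Without it, 6 of the 12 rose, and Cxcl9 was 3.74 higher at D28 than at D10 on the log2 scale (limma adjusted p = 9.0e-04).

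The ELR ligands Cxcl1 and Cxcl2 attract neutrophils through CXCR2. Cxcl2 was at 0.00, 0.74 and 0.00 at D7 and at 4.45, 3.91 and 5.30 at D10, and Cxcl1 at 3.81, 2.52 and 1.37 at D7 and at 4.31, 5.07 and 4.99 at D10. The D10 libraries were above those of D7 for both. Cxcl2 rose from D8 to D10 by 3.53 as fitted (SE 0.69, limma adjusted p = 0.0015), which is 11.5-fold, and 3.20-fold with low values raised to the level of 3 reads. Cxcl1 rose by 1.90 (SE 0.56, limma adjusted p = 0.019). The call for Cxcl1 was lost without replicate 3 of D8 (0.072) or without replicate 2 or 3 of D10 (0.058 in both fits). At D28 against D7 both were called. Cxcl1 had a log2 fold change of 2.02 (limma adjusted p = 0.01), which was 2.64 without replicate 1 of D7. Its call was lost without replicate 3 of D7 (1.42, adjusted p = 0.055) or replicate 1 of D28 (0.052), and also under the study's own rule. Cxcl2 had 2.95 in that comparison (limma adjusted p = 0.0031), a call lost with low values raised to the level of 3 reads, and 2.26 without replicate 1 and 3.63 without replicate 2 of D28. Neither was called between D10 and D28. Cxcr2 had at most 2 reads in any library.

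The other called members had means under 5 at every time point. Ccl19 (3.55, 4.38 and 3.26) and Cxcl13 (5.38, 3.55 and 2.95), both chemokines of lymphoid tissue, were highest at D28 and at 0.00 in all D10 libraries, so that Ccl19 was at least 1.81-fold and Cxcl13 at least 2.13-fold higher at D28 against the floor. The bound for Cxcl13 leans on replicate 1 of D28, and its log2 fold change as fitted was 3.96, or 3.25 without that library. Ccl19 lies in the same duplicated region as Il11ra1, so its reads may be split between copies. Ccl20 (3.54, 2.50 and 1.97), Ccl8 (2.44, 4.19 and 4.57) and Cxcr6 (3.54, 2.84 and 4.42) had their highest means at D10, and Cxcl5 (2.73, 2.17 and 3.20) at D8. Ccl11 reached 3.60 and Cxcr1 2.66 at D28. The calls for Ccl11, Ccl19, Ccl20, Ccl8, Cxcl13, Cxcl5, Cxcr1 and Cxcr6 were all lost with low values raised to the level of 3 reads. That floor lies above 3 reads at D28. Ccl19 had 17, 29 and 14 reads there and Cxcl13 64, 16 and 11, beside 0 at D10. Without single libraries, Ccl8 at D10 against D7 was lost without replicate 1 of D7 (limma adjusted p = 0.055) or replicate 3 of D10 (0.063), and Cxcr6 in the same comparison without replicate 2 of D7 (0.056) or replicate 3 of D10 (0.057). Ccl11 was lost at D28 against D10 without replicate 1 of D28 (0.05), and at D28 against D7 without any library of D7 (0.061 to 0.13), replicate 1 (0.21) or 3 (0.064) of D28, or replicate 3 of D8 (0.054) or D10 (0.051). Cxcr1 was lost without replicate 2 of D8 (0.05), any library of D10 (0.075 to 0.078), or replicate 1 (0.14) or 2 (0.15) of D28.

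A further 16 tested members were not called in any comparison: Ccl17, Ccl27a, Ccl28, Ccl3, Ccl5, Ccr10, Ccr7, Ccr9, Cxcl10, Cxcl17, Cxcl3, Cxcr3, Cxcr5, Il1a, Il1b and Tnf. Ccl27a, at 4.75 to 6.14, and Ccl28, at 3.37 to 5.05, had the highest values among them. The lowest adjusted p among these 16 was 0.051 (limma, Ccr10 at D8 against D7, log2 fold change -1.40). The remaining 19 members did not pass the filter on low values. Of these, 9 were at 0 in every library (Ccl21a, Ccl21b, Ccl22, Ccl26, Ccl27b, Ccr2, Ccr4, Ccr6 and Ccr8), and Ccl1, Ccl12, Ccl24, Ccl27, Ccl4, Ccr3, Cxcl11, Cxcl15 and Cxcr2 had at most 5 reads in any library. Of the 16 receptors, only Cxcr4 had a mean over 6 at any time point.

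Counted over the steps, the members called were as follows. From D7 to D8, 3 rose and 3 fell of 43, where 3.23% of all genes tested rose and 3.81% fell. From D8 to D10, 8 rose and 3 fell, beside 4.08% and 5.58% of all genes. From D10 to D28, 9 rose and 9 fell, beside 13.8% and 13.7%. With low values raised to the level of 3 reads, 5 rose and 7 fell in that last step, beside 11.6% and 11.7% of all genes.

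Set against D7, 12 members rose at D10 and 4 fell (27.9% and 9.30%), beside 8.50% and 10.4% of all genes, and at D28 11 rose and 7 fell (25.6% and 16.3%), beside 8.63% and 8.66%. With that floor, 8 rose and 4 fell at D10, beside 7.19% and 8.49% of all genes, and 7 rose and 6 fell at D28, beside 7.41% and 7.21%. The median log2 fold change over the 43 members was 0.05 at D10 against D7 and 0.28 at D28 against D10, beside 0.05 and -0.10 over all genes tested. Of the CC ligands, 5 of 14 tested rose and none fell at D10 against D7, but with the floor 2 rose, Ccl2 and Ccl7, and the calls for Ccl6, Ccl8 and Ccl20 were lost. All 3 IL-6 family members rose in that comparison and fell from D10 to D28.

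**Figure D3:**
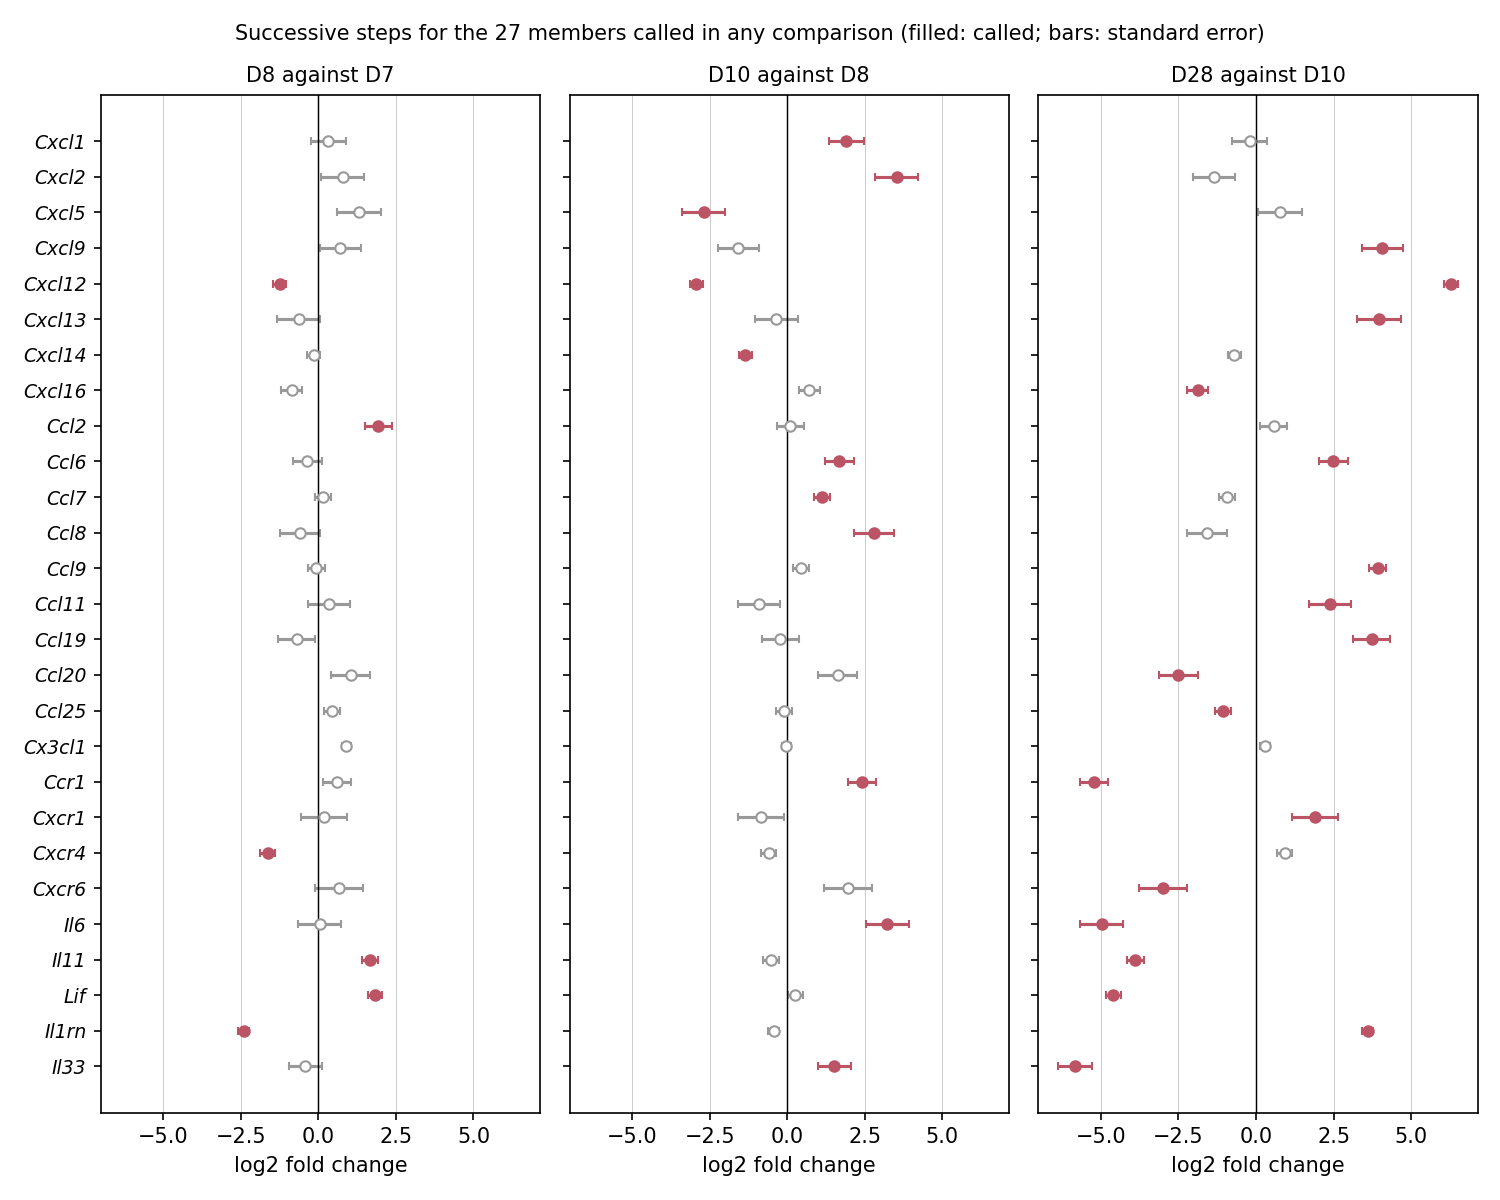
Log2 fold changes (x axis) with standard errors (bars) for the 27 members called in any comparison (y axis), for D8 against D7, D10 against D8 and D28 against D10. Filled points were called. Cxcl12 has the largest step of these, 6.28 from D10 to D28, and Il33, Ccr1, Il6, Lif and Il11 lie between -5.83 and -3.89 in the same panel.

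Leukocyte markers were followed beside these genes because CC ligands and CCR1 are well known in myeloid cells. The summed level of 15 leukocyte and macrophage markers was 10.26 to 10.49 at D7, 10.04 to 10.51 at D8, 10.32 to 10.73 at D10 and 10.42 to 12.37 at D28. S100a9 and Cd3e had at most 3 reads in any. The starting cells were described as CD45- and Ter119- by cytometry, and Ptprc, which encodes CD45, lay between 0.00 and 4.16 in these libraries. Of 13 markers tested, 7 rose and 1 (Cd68) fell from D10 to D28, where 13.8% of all genes tested rose and 13.7% fell. Without replicate 2 of D28, 3 rose (Adgre1, Csf1r and Mrc1) and 1 fell. From D7 to D10, 2 of the 13 rose and 1 fell (15.4% and 7.69%, beside 8.50% and 10.4% of all genes tested). Cd68 rose by 1.88 and Cd14 by 1.68, Adgre1 fell by 2.18, and Cd14 had risen by 1.33 at D8 already. The median log2 fold change over the 13 was -0.34, and Csf1r, Lyz2 and Mrc1 had lower means at D10 without being called. Over the same days Ccr1, Ccl2, Ccl6, Ccl7 and Ccl8 rose.

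Replicate 2 of D28 stood apart, with Lyz2 at 11.80 (9.26 and 9.49 in the other D28 libraries), Csf1r at 7.92 (4.72 and 5.13) and Adgre1 at 7.49 (4.75 and 5.36). In that library Ccl9 (10.89) was not the highest of the D28 libraries, and Ccl6 (7.75) and Ccl2 (4.93) were the lowest, while Ccl3 (3.77, beside 2.20 and 2.52), Ccl8 (3.18, beside 1.5025 and 1.81), Ccl7 (7.11) and Ccl19 (4.38) were highest there. Of the 43 members tested, 11 were highest and 16 lowest in that library among the D28 libraries. Without it, Ccl9 was 4.01 higher at D28 than at D10 on the log2 scale (limma adjusted p = 2.6e-07), Ccl6 2.74 (6.9e-04), Cxcl9 4.21 (4.5e-04) and Cxcl12 6.14 (4.7e-10). Without that library 18 members were called in the comparison, of which 16 were shared with the 18 called with it. Ccl25 (log2 fold change -0.87) and Cxcr1 (limma adjusted p = 0.15) were lost, and Ccl7 and Ccl8, both lower at D28, were gained. All 6 adipocyte markers rose from D10 to D28, and 5 fell from D7 to D10, the same directions as Cxcl12 and Il1rn. The chondrocyte markers Acan, Comp and Matn3 and the osteoblast markers Sp7, Ibsp and Alpl also fell from D7 to D10 and rose from D10 to D28. Bglap rose in both steps, and Col1a1 and Col9a1 fell in the first and were not called in the second. The summed level of 6 endothelial markers was 4.52 to 5.67 at D7, 5.89 to 7.88 at D8, 4.04 to 6.65 at D10 and 4.39 to 5.28 at D28. From D7 to D8, the step in which Lif, Il11 and Ccl2 rose, 2 of the 6 rose (33.3%, beside 3.23% of all genes tested). These were Pecam1 (by 2.27) and Kdr (by 2.55 as fitted and 0.38 with low values raised to the level of 3 reads). The sum was highest in replicate 1 of D8 (7.88, beside 5.89 and 6.24), whereas Lif, Il11 and Ccl2 were each highest in replicate 2 of D8. The part of leukocyte, endothelial, adipocyte, chondrocyte, osteoblast and skeletal muscle markers in these results was not tested beyond the values given here.

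**Figure D4:**
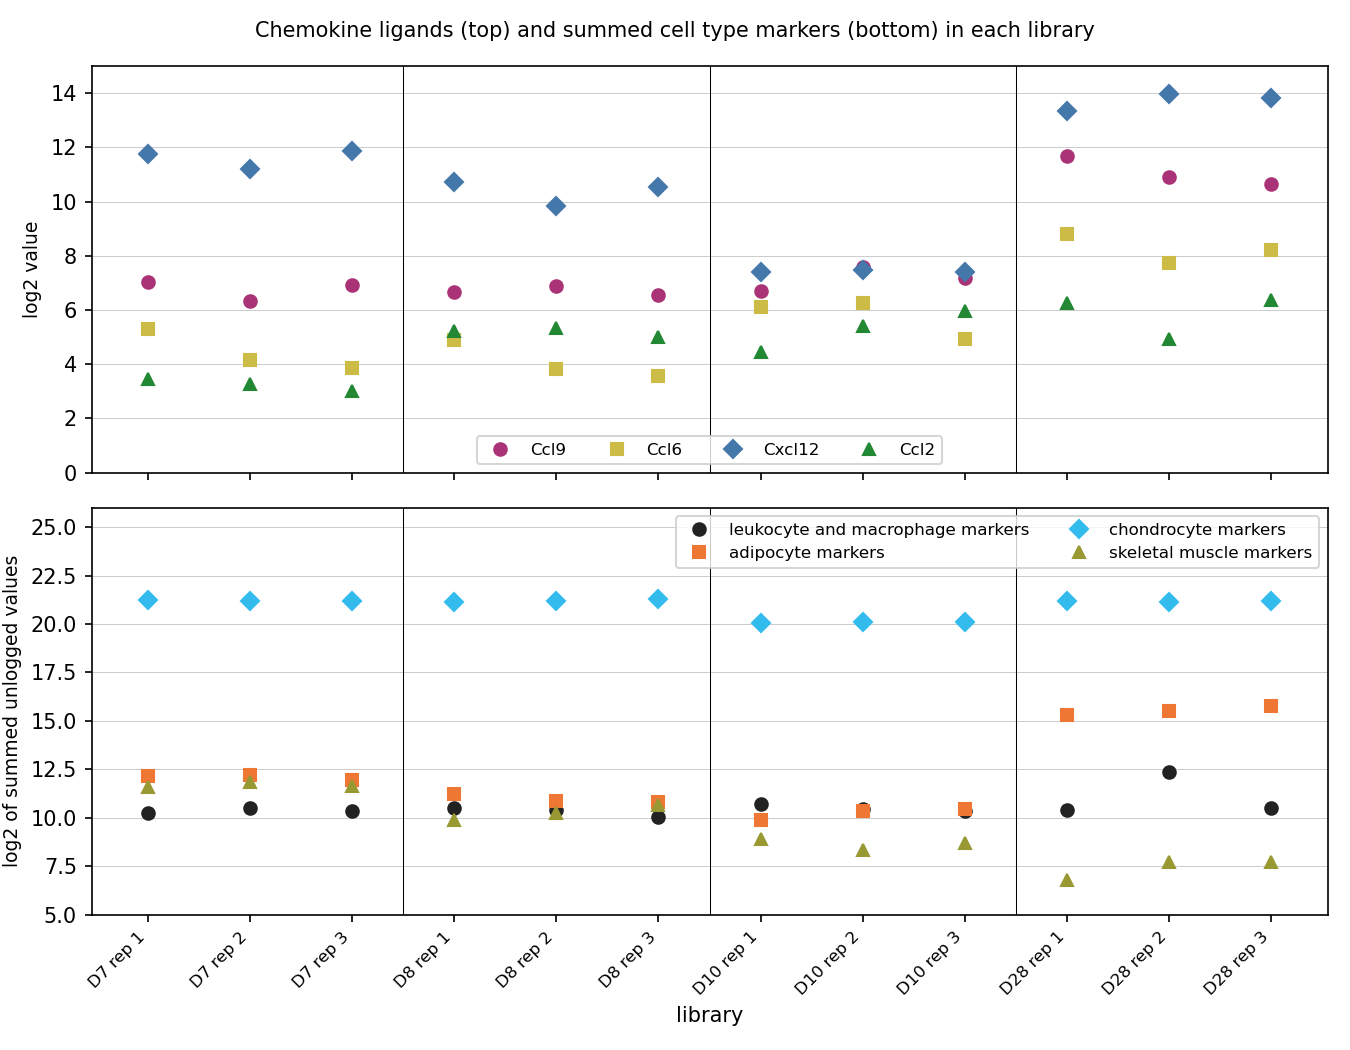
Log2 values of Ccl9, Ccl6, Cxcl12 and Ccl2 (upper panel) and log2 summed levels of 4 marker lists (lower panel) in each of the 12 libraries (x axis). The leukocyte markers are highest in replicate 2 of D28 (12.37), where Ccl6 and Ccl2 are the lowest of the 3 D28 libraries, and the adipocyte markers are at 15.33 to 15.77 in all 3.

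Ackr4, which scavenges CCL19, CCL21 and CCL25, was at 7.45, 5.91 and 7.66 at D7, at 2.87, 2.03 and 3.07 at D10 and at 8.10, 9.39 and 9.45 at D28. Its D10 libraries were far below both others, and the gene fell by 4.35 (SE 0.61, limma adjusted p = 3.8e-05) and then rose by 6.32 (SE 0.61, limma adjusted p = 4.4e-07). Of the 8 receptors and decoys outside the rule, 7 were tested, of which 2 rose and 3 fell in each of these steps, beside the shares of all genes given above. Of the others called, Ackr2, Ccrl2 and Xcr1 had a time point at or near the level of 3 reads. Of 14 NF-kappaB subunits and feedback genes, 1 rose (Relb, by 1.59, limma adjusted p = 8.5e-06) and 1 fell (Bcl3, by 2.20, limma adjusted p = 7.1e-06) from D7 to D10. These are 7.14% each, beside 8.50% and 10.4% of all genes tested. From D10 to D28, Nfkbia, the inhibitor that NF-kappaB itself induces, rose by 2.09 (SE 0.12, limma adjusted p = 2.2e-09), and Relb and Rel fell. In that step 7.14% of the 14 rose and 14.3% fell, beside 13.8% and 13.7% of all genes tested. Pf4, a chemokine outside the rule, rose by 4.00 as fitted (SE 0.81, limma adjusted p = 6.5e-04) and by 2.21 with low values raised to the level of 3 reads. Its highest value, 7.01, was in replicate 2 of D28, beside 4.34 and 3.91 in the other D28 libraries.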

How the data were processed

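RNA was sequenced from cell pellets in 12 libraries, with 3 for each time point (D7, D8, D10, D28). Per the submitters' processing notes and the methods, reads were processed with Trimmomatic 0.36, HISAT2, Cufflinks and HTSeq. The processing notes name GRCm38 as the genome, whereas the methods name the human genome hg38, and the gene symbols in the file are those of mouse. The authors deposited log2 values, the log2 of counts equalized between samples plus 1. Such values keep no library totals, so depth was read from the rank of the lowest distinct values in each library, relative to the mean over 12 libraries and 562 genes, and the floor covers counting error only. The sorted values are alike between libraries, so a change in total RNA cannot be seen.

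The 17674 genes that reached 1 on the log2 scale in 3 or more libraries entered a limma model (version 3.58.1, R 4.3.3) of 4 group means and a variance trend, with two-sided p-values adjusted by Benjamini-Hochberg over all genes of a comparison. The members and lists were chosen with earlier results of these data known. Values are given per library for members called in any comparison with a mean of at least 5 at a time point (17 genes), and up to 4 called genes per pathway list are named by size of change at D10 against D7 and D28 against D10, with others beside them where a result turns on them. Cxcl1, Cxcl2 and Il6st, and the other members and genes printed per library beyond that rule, were picked for their role. Alternatives were the filter, pseudocount, scaling, fold threshold, floor, the study's rule, a replicate block and leaving out each library. Positions are from GENCODE M21 on GRCm38. Promoters are from RefSeq (GRCm38.p6). The fit was tested on simulated data. Values of 1 member and 1 marker gene are not reported here.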

Additional observations from a re-analysis of the deposited data

How the results depend on the processing

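Of 69 calls of a member in a comparison, 34 held under each alternative and each left-out library, 35 were lost under at least 1, and none reversed. With genes required to have a mean log2 value of at least 3, the members called were 6 at D10 against D8, 10 at D10 against D7 and 10 at D28 against D10, since fewer members were tested. Of the 13927 genes then tested, 1423, 2761 and 3994 were called in these comparisons. With a log2 fold change of at least 2 required, 1 member was called at D8 against D7 and 6 at D10 against D8, beside 388 and 532 of 17674 genes. Leaving out 1 library at a time gave 5 to 7 members at D8 against D7, 9 to 12 at D10 against D8, 14 to 17 at D10 against D7, 16 to 20 at D28 against D10 and 16 to 19 at D28 against D7. Over all 17674 genes the same fits called 1006 to 1337, 1381 to 1789, 3028 to 3464, 4554 to 4909 and 2805 to 3151 in that order. With a replicate block, the counts were 6, 11, 16, 18 and 18 in the order D8 against D7, D10 against D8, D10 against D7, D28 against D10 and D28 against D7. Beside them stood 1210, 1691, 3326, 4825 and 3030 of all genes tested. Of the 69 calls only Cxcr1 at D28 against D10 was lost (limma adjusted p = 0.052), so the 18 there include a member not called in the main fit. Same-numbered replicates correlated between -0.058 and 0.067 in their deviations from the group means over 18 pairs, with 0 of them over 0.1, so the numbers were not taken to pair the samples. Raising low values to the level of 3 reads ended 17 of the 69 calls, and a pseudocount of 5 ended 4, so depth limits what can be said of members under about 3 on the log2 scale. The lists of leukocyte markers and interferon genes were fitted without replicate 2 or 3 of D28 as alternatives chosen after seeing the data.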

Other observations

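Some members of low level differed between libraries of 1 time point. Ccr3 had 4 reads in replicate 2 of D10 and 0 in all other libraries, and Tnf had 6 reads in the same library and at most 2 in any other. Cxcl10 had 0 reads in replicate 1 of D7 and 20 and 9 in the other D7 libraries.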
